A study of Rattus norvegicus with 23 samples.

Results

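The 10 imprinted genes examined here have known roles in fetal growth and were measured in whole hearts of newborn Sprague Dawley rats. They are Igf2, Igf2r, H19, Cdkn1c, Grb10, Peg3, Mest, Plagl1, Ndn and Peg10. A probe set, the group of array probes that together report 1 gene, was taken as a member when the array annotation gave it exactly 1 of these symbols. That rule found 9 probe sets of 8 genes among the 29170 probe sets measured, which carried 14506 single gene symbols, with 2 probe sets for H19 and 1 for each of the other 7 genes. No probe set carried the symbol Peg3 or Peg10. Peg10 was not analysed here. Peg3 is described through probe set 10703838. Its gene identifier came from a supplementary listing of genes past the threshold between combination and HF diet exposed hearts. Peg3 was therefore left out of every count of member calls and directions, and its differences are given as a description. The counts of gene pairs and of outlying single hearts below do include it.

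The study asked how maternal diabetes and a maternal high fat (HF) diet, alone and together, act on the heart of the offspring. Dams ate a control or an HF diet over 28 days or more ahead of mating and until birth, and on gestational day 14 they were injected with citrate buffer (0.09 M) or with streptozotocin (65 mg/kg), a toxin of pancreatic beta cells. Control hearts (n = 7) came from the control diet and buffer, diabetes exposed hearts (n = 6) from the control diet and streptozotocin, HF diet exposed hearts (n = 5) from the HF diet and buffer, and combination exposed hearts (n = 5) from the HF diet and streptozotocin. Diabetic dams also received insulin, so the diabetes exposed and combination exposed hearts share 2 drugs that the other groups lack. Pups were born at about gestational day 22 and hearts were taken on postnatal day 1. Each group mixed males and females, and the sex of a single heart is not given. Sample codes fell into 19 stems, 3 of which were shared by several hearts (HF diet hearts 3, 4 and 5, combination hearts 1 and 2, and combination hearts 4 and 5), and nothing in the labels or methods ties a stem to a litter. The p-values therefore measure the spread between hearts, some of which may be littermates.

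An imprinted gene is expressed mainly from the copy inherited from 1 parent. In the mouse, Igf2, Peg3, Mest, Plagl1, Ndn and Peg10 are expressed from the paternal copy, and H19, Igf2r, Cdkn1c and, in most tissues outside the brain, Grb10 from the maternal copy. Many paternally expressed genes promote fetal growth and many maternally expressed genes restrain it. Igf2 encodes a fetal growth factor that signals through the IGF1 receptor and the insulin receptor. Igf2r encodes a receptor that takes IGF2 up for degradation in lysosomes. H19 is a long non-coding RNA that shares enhancers with Igf2. Plagl1 encodes a zinc finger transcription factor that binds those enhancers in the mouse, Cdkn1c the cell cycle inhibitor p57, and Grb10 an adaptor that dampens signalling of the insulin and IGF1 receptors. The array measures both parental copies together, so it gives no information on the imprint itself.

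In the rat gene order of RefSeq (assembly GRCr8), 7 of the 10 genes lie on chromosome 1, Mest and Peg10 on chromosome 4 and Grb10 on chromosome 14. H19 and Igf2 are direct neighbours, followed by Ins2 and Th. Cdkn1c lies between Kcnq1 and Slc22a18, with Phlda2 next, and Ndn is followed by Magel2 and Mkrn3. Peg10 sits between Sgce and Ppp1r9a, and Mest is followed by Copg2. The promoter windows of RefSeq, from 250 bases before to 50 bases after a gene's start, hold 9 windows for 8 of the 10 genes, and H19 and Cdkn1c were not matched. Printed are the windows of 5 members (Igf2, Igf2r, Plagl1, Mest and Grb10) from the sets of genes whose heart to heart variation is described below. The windows of Peg3, Ndn and Peg10 are not printed. Capitals mark GGGCGG, the core of a box bound by Sp1 and KLF factors, or CACGTG, an E-box, on either strand (CCGCCC is GGGCGG on the other strand).
Igf2, chr1:207253931-207254230, GRCr8, minus strand: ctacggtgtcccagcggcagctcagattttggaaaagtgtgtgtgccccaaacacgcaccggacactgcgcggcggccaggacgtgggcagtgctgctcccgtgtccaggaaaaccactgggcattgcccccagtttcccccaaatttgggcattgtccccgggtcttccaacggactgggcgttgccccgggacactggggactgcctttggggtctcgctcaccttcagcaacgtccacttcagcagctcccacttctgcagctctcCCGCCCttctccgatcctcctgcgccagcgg
Igf2, chr1:207250426-207250725, GRCr8, minus strand: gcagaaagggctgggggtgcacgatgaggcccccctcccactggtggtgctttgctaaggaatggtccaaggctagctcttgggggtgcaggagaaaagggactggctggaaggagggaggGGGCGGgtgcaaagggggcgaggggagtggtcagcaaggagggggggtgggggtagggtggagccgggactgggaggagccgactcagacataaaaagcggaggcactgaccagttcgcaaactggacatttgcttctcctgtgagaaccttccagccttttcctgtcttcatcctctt
Igf2r, chr1:50526628-50526927, GRCr8, plus strand: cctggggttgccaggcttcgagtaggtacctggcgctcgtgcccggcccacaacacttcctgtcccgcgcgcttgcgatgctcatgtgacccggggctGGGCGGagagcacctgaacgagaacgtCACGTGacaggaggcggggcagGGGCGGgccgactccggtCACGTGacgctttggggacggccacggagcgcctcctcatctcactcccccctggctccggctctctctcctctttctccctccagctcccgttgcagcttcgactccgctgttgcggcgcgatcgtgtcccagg
Plagl1, chr1:9297214-9297513, GRCr8, plus strand: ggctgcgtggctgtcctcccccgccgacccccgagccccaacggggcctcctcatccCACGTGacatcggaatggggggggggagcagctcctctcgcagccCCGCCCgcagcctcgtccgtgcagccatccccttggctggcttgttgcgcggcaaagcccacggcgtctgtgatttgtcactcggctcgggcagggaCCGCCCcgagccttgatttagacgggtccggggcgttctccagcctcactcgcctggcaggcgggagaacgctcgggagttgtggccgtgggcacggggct
Mest, chr4:60321564-60321863, GRCr8, plus strand: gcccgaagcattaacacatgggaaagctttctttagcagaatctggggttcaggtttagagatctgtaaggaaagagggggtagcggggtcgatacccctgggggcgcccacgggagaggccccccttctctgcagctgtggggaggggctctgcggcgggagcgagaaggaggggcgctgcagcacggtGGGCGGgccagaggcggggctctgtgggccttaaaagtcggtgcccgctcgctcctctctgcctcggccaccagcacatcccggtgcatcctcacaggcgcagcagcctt
Grb10, chr14:90816338-90816637, GRCr8, minus strand: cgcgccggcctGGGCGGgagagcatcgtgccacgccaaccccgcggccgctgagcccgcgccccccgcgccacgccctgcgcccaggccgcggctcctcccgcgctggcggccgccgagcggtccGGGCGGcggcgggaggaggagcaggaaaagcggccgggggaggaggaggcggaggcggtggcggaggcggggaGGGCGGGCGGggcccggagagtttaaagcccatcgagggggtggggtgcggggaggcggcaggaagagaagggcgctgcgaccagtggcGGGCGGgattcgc

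GGGCGG occurred in 8 of the 9 windows and in 33.1% of 33469 rat promoter windows of the same length. The exception was the window of Peg3, which held no CACGTG either. CACGTG occurred in the windows of Plagl1 and Igf2r, against 6.42% of all windows, with 1 copy in Plagl1 and 2 in Igf2r. TATAAA, the TATA box core, was in none of the 9 windows and in 14.2% of all. The 6 windows held 7 to 44 CpG dinucleotides, with the fewest in the second Igf2 window and the most in Grb10, against a median of 7 over all windows and quartiles of 3 and 19. These matches describe letters in a window and say nothing of binding.

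Every value is a log2 value that was set so that the median of its probe set over the 23 hearts is 0. A value of 0.50 is therefore 0.50 above the middle heart for that gene, levels of different genes cannot be compared, and heart marker genes could not be checked by level. The medians of the arrays lay between -0.015 and 0.019 and their SDs between 0.16 and 0.39, the widest in combination heart 1. The first principal component, the single pattern that carried most variation, held 28.8% of the variance over all probe sets and was higher in the combination exposed (18.3 ± 23.2, SD, n = 5) than in the HF diet exposed hearts (-10.5 ± 14.5, SD, n = 5; exact permutation p = 0.0476, two-sided). In 1 control heart the mean of 8 lung and thymus markers stood at 4.27, against at most 0.77 in any other group. A difference was called when it lay beyond 0.32 on the log2 scale in either direction and its unadjusted p from limma was under 0.05, which is the threshold of the methods. No probe set of the 29170 passed an adjusted p of 0.05 in any of the 7 contrasts by limma, although at unadjusted p under 0.05 between 1.61% and 13.3% did.

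The combination exposed hearts were set first against the HF diet exposed hearts, which asks what diabetes adds to the diet. Plagl1 and 1 of the 2 H19 probe sets were lower in combination exposed hearts, by 0.46 and 0.37 on the log2 scale, and Igf2 and Igf2r were lower by 0.27 and 0.28 without passing the threshold. Of the 9 member probe sets 2 were called, both lower, against 5.76% of all 29170 probe sets called and 2.92% called lower. Neither was called when hearts that share a code stem were averaged (-0.33 for Plagl1 and -0.26 for H19) or by the methods' t-test. The difference was below 0 in 7 of the 9 member probe sets, and it was above 0 in 47.1% of all probe sets. The member median was -0.23 against -0.011 over all probe sets. The 9 are not independent, as 2 read H19 and several vary together across hearts. In whole hearts, fewer cells that express a gene and less RNA per cell cannot be told apart.

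**Figure D1:**
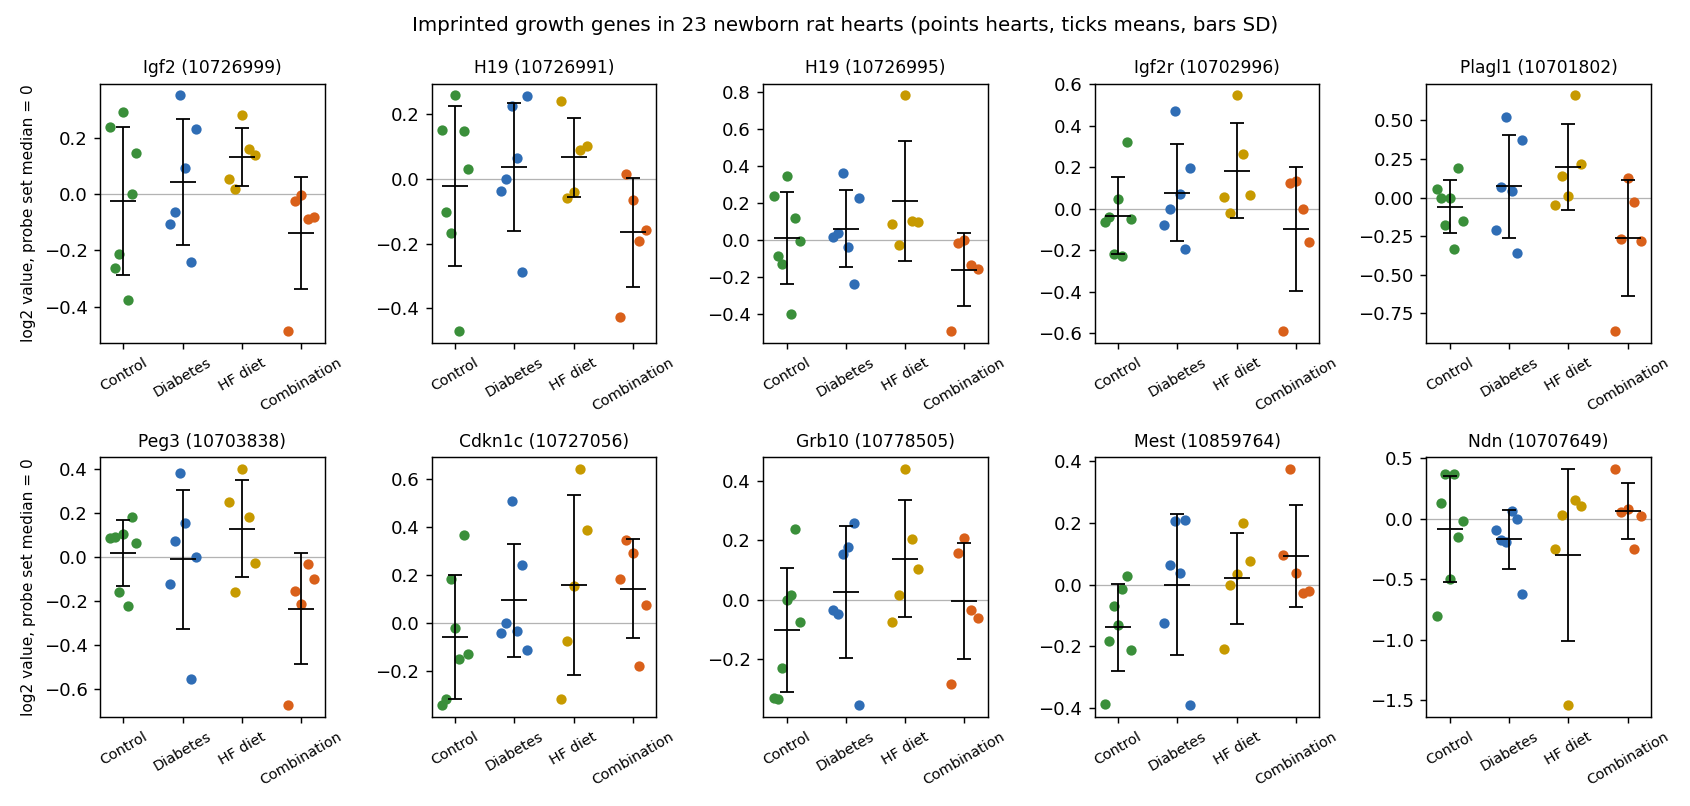
Log2 values of the 9 member probe sets and of Peg3 in 23 newborn rat hearts, set to a median of 0 per probe set (vertical axes, each panel with its own scale), by exposure group (horizontal axes). Points are hearts, ticks are group means and bars are SD (n = 7 control, 6 diabetes, 5 HF diet and 5 combination). For Igf2 the 5 HF diet exposed hearts all lie at 0.016 or above and the 5 combination exposed hearts at -0.005 or below.

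Igf2 read 0.055, 0.016, 0.28, 0.161 and 0.14 in HF diet hearts 1 to 5, and -0.487, -0.024, -0.005, -0.088 and -0.082 in combination hearts 1 to 5. All HF diet exposed hearts were above all combination exposed hearts, although the nearest hearts were close, and 1.64% of all probe sets likewise had no overlap between these groups. Control hearts ran from -0.375 over a median of 0 to 0.29, and diabetes exposed hearts from -0.243 over 0.01 to 0.35, so that both reached across the other 2 groups. The difference was -0.27 (SE 0.13, 95% CI -0.54 to 0.0017, fold 1.20, limma adjusted p = 0.377), which did not pass the threshold. The exact permutation test over the 10 hearts gave p = 0.00794, two-sided and unadjusted, the smallest that 252 splits allow. That test shuffled single hearts, some of which share a code stem. With hearts of 1 code stem averaged, the Igf2 difference was -0.20 (limma unadjusted p = 0.244). Combination heart 1 stood apart, and without it the difference was -0.18.

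H19 was read by a pair of probe sets. On 10726995, HF diet hearts 1 to 5 read 0.09, -0.023, 0.781, 0.104 and 0.096, and combination hearts read -0.49, -0.012, 0, -0.134 and -0.155. The groups overlapped only through HF diet heart 2, and HF diet heart 3 was far above all the rest. The difference was -0.37 (SE 0.15, 95% CI -0.68 to -0.058, limma adjusted p = 0.368), with an exact permutation p of 0.0238 over the 10 hearts. The call was lost without HF diet heart 3 (-0.22) and without combination heart 1 (-0.28), and it was kept in 21 of the 23 fits that left out 1 heart.

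On the other H19 probe set, 10726991, HF diet hearts 1 to 5 read 0.241, -0.058, -0.04, 0.09 and 0.1, and combination hearts 1 to 5 read -0.427, 0.015, -0.064, -0.191 and -0.159. HF diet heart 3, the highest on 10726995, was here below the median heart. The difference was -0.23 (SE 0.12, limma adjusted p = 0.397) and was not called, with an exact permutation p of 0.0318. After removal of group means the H19 probe sets correlated at r = 0.67 over 23 hearts (Spearman's rho 0.69, permutation p = 0.00072 and 0.00085), at r = 0.51 without the 2 hearts farthest from the median, and at r = 0.95 without HF diet heart 3. The high H19 value of that heart was thus read by 1 probe set and not by the other.

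Plagl1 read -0.045, 0.141, 0.011, 0.662 and 0.216 in HF diet hearts 1 to 5, and -0.865, -0.269, 0.125, -0.03 and -0.278 in combination hearts 1 to 5. HF diet heart 4 was the highest of all 23 hearts and combination heart 1 the lowest, and the groups overlapped. Control hearts ran from -0.331 over -0.004 to 0.19, and diabetes exposed hearts from -0.358 over 0.057 to 0.523. The difference between combination and HF diet exposed hearts was -0.46 (SE 0.17, 95% CI -0.82 to -0.099, fold 1.38, limma adjusted p = 0.368), with an exact permutation p of 0.0397. The call was lost without combination heart 1 (-0.31) and without HF diet heart 4 (-0.34).

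Igf2r read 0.058, -0.018, 0.547, 0.263 and 0.068 in HF diet hearts 1 to 5, and -0.589, 0.124, 0.135, 0 and -0.158 in combination hearts 1 to 5. Combination hearts 2, 3 and 4 lay within the HF diet range, heart 5 below it and heart 1 far below it. The difference was -0.28 (SE 0.14, 95% CI -0.58 to 0.013, limma adjusted p = 0.386), with an exact permutation p of 0.143, and it was -0.16 without combination heart 1. Peg3, a zinc finger gene, read 0.248, -0.158, 0.399, 0.181 and -0.026 in HF diet hearts and -0.674, -0.155, -0.215, -0.034 and -0.101 in combination hearts, a mean difference of -0.36.

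Cdkn1c (-0.01), Grb10 (-0.14) and Mest (0.07) were not called in this comparison, with 95% CIs of the log2 difference from -0.35 to 0.33 for Cdkn1c, -0.41 to 0.12 for Grb10 and -0.15 to 0.30 for Mest. Ndn, which encodes necdin, a growth suppressor of post-mitotic neurons, gave 0.36 (SE 0.26, limma adjusted p = 0.518). HF diet hearts 1 to 5 read -0.248, 0.033, -1.537, 0.151 and 0.102 for Ndn, so 1 heart made most of that value, and without it the difference was 0.05.

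**Figure D2:**
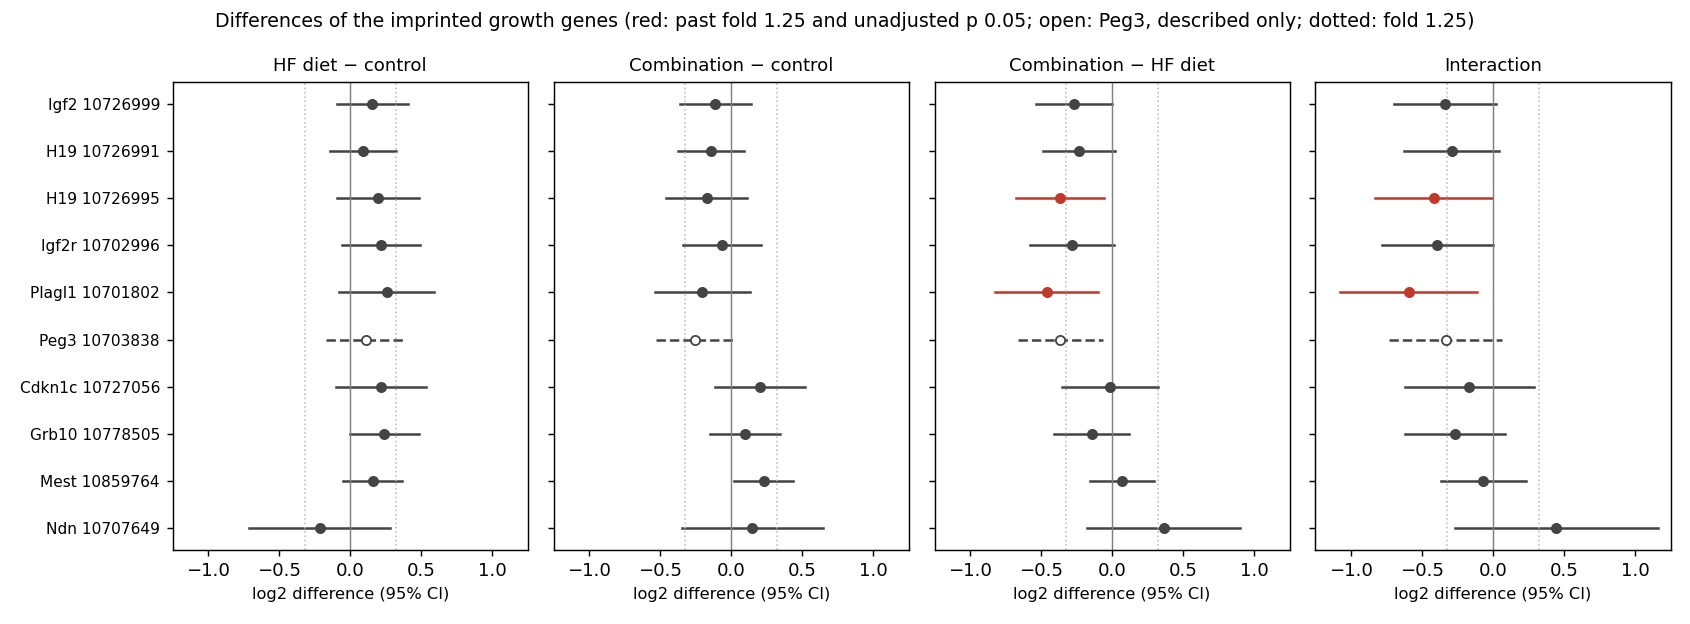
Log2 differences (horizontal axes, points) with 95% confidence intervals from limma (lines) for each member probe set and Peg3 (vertical axis) in 4 contrasts over 23 hearts. Red marks the calls, H19 10726995 and Plagl1 in combination minus HF diet (-0.37 and -0.46) and in the interaction (-0.42 and -0.59), open points with dashed lines are Peg3, whose differences are a description, and dotted lines mark a log2 difference of 0.32 in either direction.

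Array-wide variation moved with these genes. The first component of the deviations from group means held 56.1% of the variance within groups for Igf2 and 51.7% and 60.5% for the H19 probe sets. It held 42.9% for Igf2r, 41.3% for Plagl1 and 61.4% for Peg3, against a median of 15.2% over all probe sets. All of these genes fell as that component rose. With the component of all hearts as a covariate, the differences between combination and HF diet exposed hearts were -0.05 for Igf2, -0.11 for H19 10726995, -0.07 for Igf2r and -0.20 for Plagl1, and no member was called. The component of all hearts itself differed between the groups, so it cannot be told apart from the exposures.

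Cell type markers were compared in the same contrast. The mean of 14 fibroblast and mesenchyme markers ran from -0.19 to 0.085 in HF diet exposed and from -0.27 to 0.034 in combination exposed hearts, with none of the 14 called and 10 of 14 lower. With that mean as a covariate, Plagl1 was at -0.30 and no longer called, whereas H19 10726995 was at -0.37 and still called. The mean of 11 erythroid markers ran from -0.25 to 0.19 and from -0.40 to 1.18, with 1 called higher, and with it as a covariate both calls were kept. Of 16 cardiomyocyte markers 6 were higher, the list median was -0.0087, and Ryr2 and Ttn were called lower (-0.45 and -0.40). Of 9 endothelial markers 3 were higher, the list median was -0.099, and Tie1 was called lower (-0.37). Of 11 macrophage markers 8 were higher, with Lyz2 called (0.90), and of 5 epicardial markers 4 were higher, with Upk1b called (0.44). Of 8 smooth muscle and pericyte markers 2 were higher (list median -0.11), of 9 liver markers 8 (0.086), and of 8 lung and thymus markers 2 (-0.15), with none called. The part of other cell types beyond these covariates was not tested.

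Each exposure alone was compared with control hearts. No member was called in diabetes exposed hearts, where 0.305% of all probe sets were called, or in HF diet exposed hearts, where 0.943% were. Differences were above 0 in 8 of 9 member probe sets in both comparisons, which share the control hearts, with Ndn below 0 each time. Of all probe sets, 49.9% (diabetes) and 55.8% (HF diet) were above 0. The member medians were 0.11 for diabetes and 0.20 for the HF diet, against -0.00017 and 0.013 over all probe sets. The widest intervals still admitted changes past the fold threshold in either exposure, so a p that misses the threshold does not show that these genes were alike.

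In the HF diet exposed hearts, Grb10 had the smallest unadjusted p of the members, and Plagl1 the largest difference (0.26). The 5 Grb10 values were -0.074, 0.016, 0.44, 0.205 and 0.102, against control hearts from -0.336 over -0.076 to 0.237, and the groups overlapped widely. The difference was 0.24 (SE 0.12, fold 1.18, limma adjusted p = 1.00, exact permutation p = 0.072). Cdkn1c was at 0.22, Igf2r at 0.22 and Igf2 at 0.16, and neither these nor Plagl1 were called. Of the 23 fits that left out 1 heart, Cdkn1c was called in the 1 without HF diet heart 1 (0.34).

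In diabetes exposed hearts the differences from control ran from -0.08 for Ndn to 0.15 for Cdkn1c. Igf2 was at 0.07, Igf2r at 0.11 and Plagl1 at 0.13. Diabetes exposed heart 3 was high for many members at once, at 0.35 for Igf2, 0.523 for Plagl1, 0.474 for Igf2r and 0.509 for Cdkn1c. Diabetes and HF diet exposed hearts also differed in no member by the threshold, where 0.439% of all probe sets were called.

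Combination exposed hearts were compared with control and with diabetes exposed hearts. No member was called against control, where 3.31% of all probe sets were called, or against diabetes, where 3.04% were. Mest, which encodes a protein of the alpha/beta hydrolase fold family, was the only 1 of 9 member probe sets with an unadjusted p under 0.05 against control, as were 9.9% of all probe sets. Control hearts ran from -0.386 over -0.132 to 0.029, and combination hearts 1 to 5 read 0.097, 0.373, 0.036, -0.026 and -0.021. Of the combination exposed hearts 3 were above every control heart, and the other 2 were within the upper control range. The difference was 0.23 (SE 0.10, 95% CI 0.022 to 0.44, fold 1.17), below the fold threshold, with a limma adjusted p of 0.496 and an exact permutation p of 0.0164. By the methods' t-test its unadjusted p was 0.0355. The limma unadjusted p was 0.0775 with hearts of 1 code stem averaged (0.22) and 0.0726 without control heart 1 (0.19). With the component of all hearts as a covariate it was 0.141 (0.15).

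The other members were at -0.20 (Plagl1) to 0.20 (Cdkn1c) against control, with Igf2 at -0.11 and the H19 probe sets at -0.14 and -0.17. Against diabetes, Plagl1 was at -0.34 (SE 0.17, fold 1.26, limma adjusted p = 0.534, exact permutation p = 0.156), past the fold change but not the p of the threshold. It was called there without combination heart 3 or 4, diabetes exposed heart 1 or 5, or HF diet heart 4. In all, 60 exact permutation tests were run, the 9 member probe sets and Peg3 in 6 pairs of groups, and their p-values are unadjusted.

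The design crosses diet with diabetes, so the difference that diabetes made under the HF diet could be set against the difference it made under the control diet. For Plagl1, the diabetes exposed hearts stood 0.13 above control and the combination exposed hearts 0.46 below HF diet, an interaction of -0.59 (SE 0.23, 95% CI -1.07 to -0.11, limma adjusted p = 0.672). For H19 10726995 the same steps were 0.05 and -0.37, an interaction of -0.42 (SE 0.20, 95% CI -0.83 to -0.0051, limma adjusted p = 0.672). These were the 2 calls among 9 member probe sets, against 4.34% of all probe sets called and 2.56% called lower. The interaction was below 0 in 8 of 9, and above 0 in 48.6% of all probe sets, with a member median of -0.29 against -0.0069 over all probe sets. Igf2r was at -0.39 (SE 0.19), Igf2 at -0.34 (SE 0.17), H19 10726991 at -0.29 (SE 0.16) and Grb10 at -0.27 (SE 0.17), none of them called. Of the cell type markers, the fibroblast genes Col1a1 (-0.40) and Fbln2 (-0.41) and Myh11 of smooth muscle (-0.65) were called lower in the interaction. Myh7 of cardiomyocytes (-0.34) and endothelial Tie1 (-0.37) were also called lower, and macrophage Lyz2 higher (1.14). The interaction was above 0 in 4 of 14 fibroblast, 1 of 8 smooth muscle and 3 of 9 endothelial markers. It was above 0 in 9 of 16 cardiomyocyte and 10 of 11 macrophage markers. Apart from the fibroblast mean below, the part of these markers in the result was not tested. Plagl1 was kept in all 23 fits that left out 1 heart (-0.69 to -0.44) and H19 10726995 in 11 of 23. The H19 call was lost without control heart 2, 3, 5 or 7, diabetes exposed heart 1, 2, 3 or 6, HF diet heart 3, or combination heart 1, 4 or 5. With the component of all hearts as a covariate neither was called, at -0.31 for Plagl1 and -0.13 for H19, and the same held with the fibroblast mean, at -0.40 and -0.41.

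**Figure D3:**
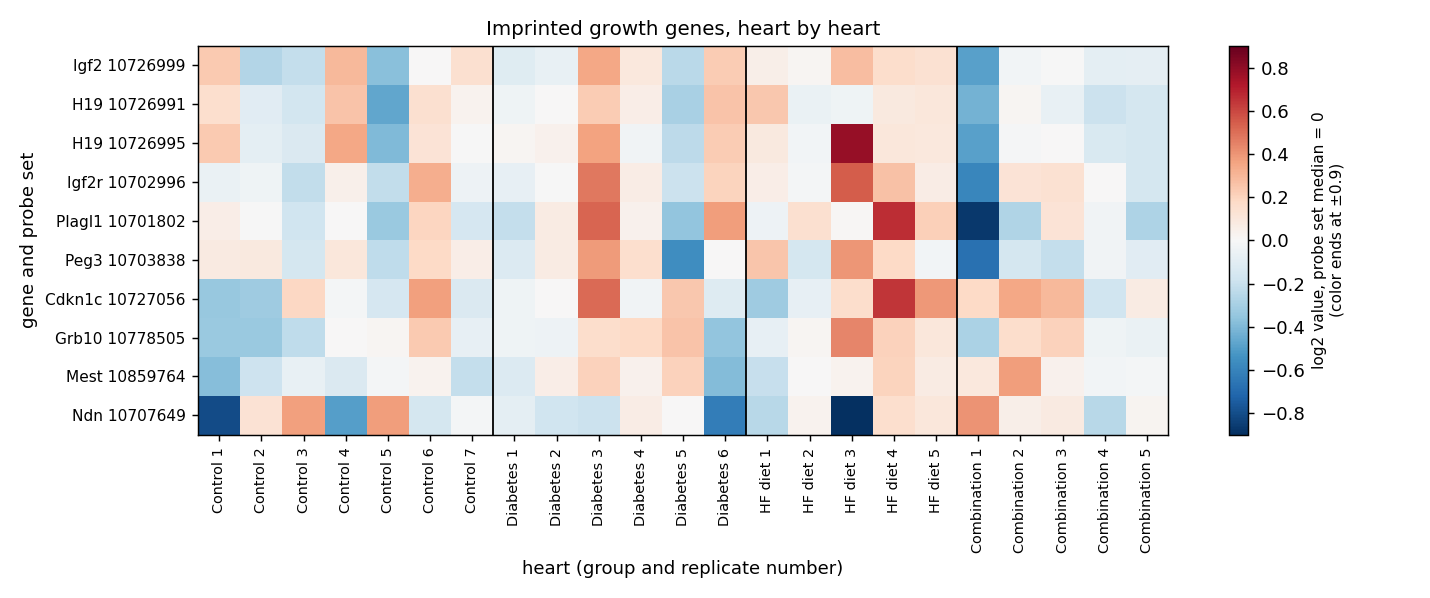
Log2 values (color, median of each probe set = 0, colors end at ±0.9) of the member probe sets and Peg3 (rows) in each of the 23 hearts (columns, by group and replicate number, black lines between groups). Combination heart 1 is the lowest for Igf2 (-0.487), Igf2r (-0.589) and Plagl1 (-0.865), and HF diet heart 3 is high for H19 10726995 (0.781) and low for Ndn (-1.537).

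Hearts of the same group differed from each other along lines the members shared. Group means were removed and each of the 36 pairs of the 8 members and Peg3 was correlated over 23 hearts. H19 was read by 10726995, its wider probe set. HF diet heart 3 read 0.781 on that probe set and -0.04 on 10726991. Correlations of 10726991 with the other genes were not computed. Leaving out 1 heart, r ran from 0.81 to 0.93 for Igf2 and H19 and from 0.79 to 0.85 for H19 and Igf2r. It ran from -0.88 to -0.74 for H19 and Ndn and from 0.39 to 0.74 for H19 and Plagl1. By within-group permutation (100000 draws, Benjamini-Hochberg over the 36 pairs), 18 pairs passed an adjusted p of 0.05. The median absolute r of the 36 pairs was 0.44, against 0.23 over all 117190395 pairs of probe sets with a single symbol, and 47.2% of the 36 reached 0.5 against 12.1% of all pairs. Those pairs were not matched in spread to the genes here. The SD over 23 hearts ran from 0.183 (Mest) to 0.429 (Ndn), against a median of 0.178 over all probe sets. The excess is therefore not shown to be particular to these genes.

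**Figure D4:**
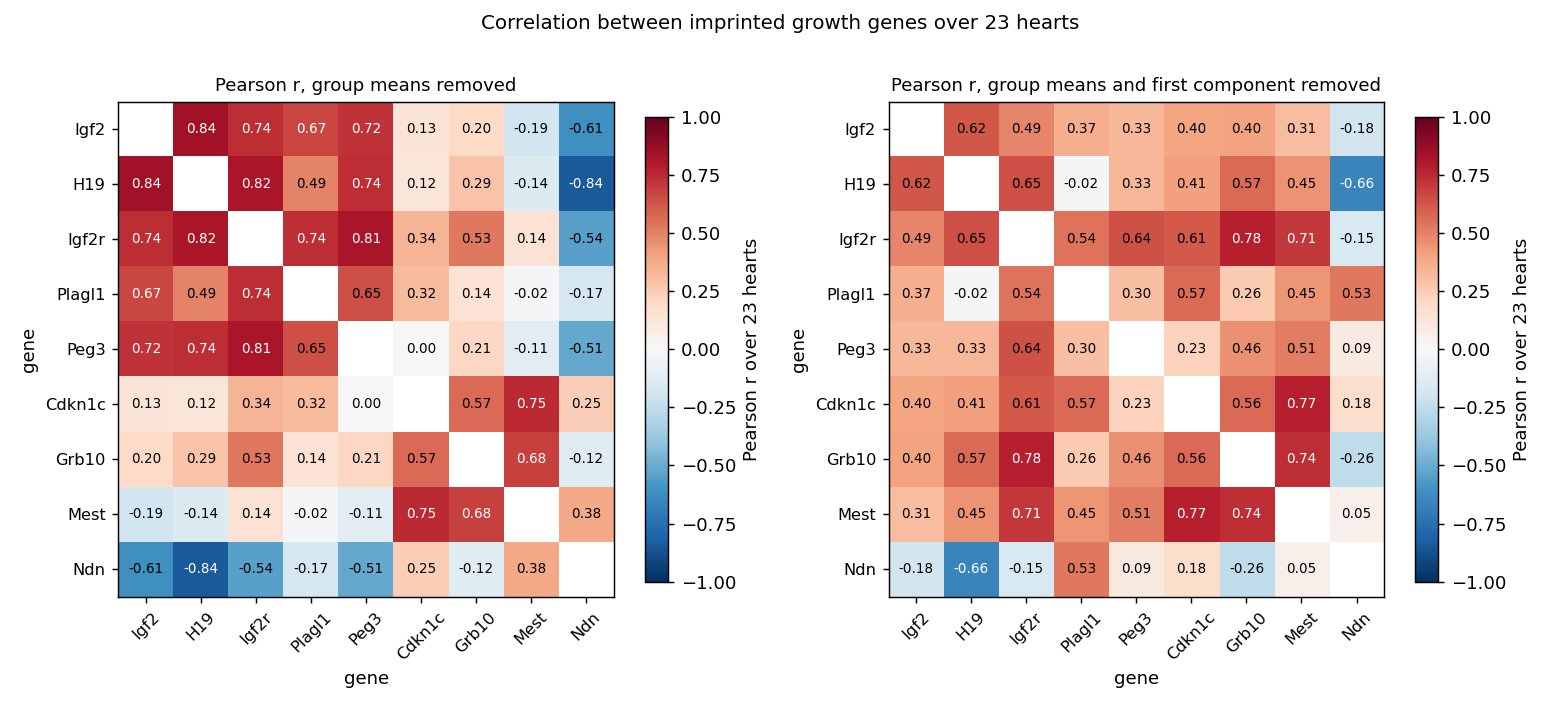
Pearson's r between 8 imprinted growth genes and Peg3 over 23 hearts after removal of group means (left) and of group means and the first within-group component (right), with genes on both axes and color from -1 to 1. Igf2, H19, Igf2r, Plagl1 and Peg3 form a block of r from 0.49 to 0.84 on the left, and Cdkn1c, Grb10 and Mest one from 0.57 to 0.75.

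Igf2 and its neighbour H19 varied together across hearts (r = 0.84, permutation adjusted p = 0.00024, rho 0.89), at r = 0.91 within control and 0.92 within diabetes exposed hearts alone, and at r = 0.77 without the 2 hearts farthest from the Igf2 median. H19 and Igf2r followed at r = 0.82 (permutation adjusted p = 0.00018, rho 0.84, r = 0.80 without 2 hearts). Igf2r lies elsewhere on chromosome 1. Igf2 also went with Igf2r (r = 0.74, rho 0.74, 0.64 without 2 hearts) and with Plagl1 (r = 0.67, rho 0.60, 0.53 without 2 hearts), with permutation adjusted p of 0.00063 and 0.00263.

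The second set joined Cdkn1c, Grb10 and Mest, which lie on 3 chromosomes. Cdkn1c and Mest correlated at r = 0.75 (permutation adjusted p = 0.00063, rho 0.75, r = 0.71 without the 2 hearts farthest from the Cdkn1c median), Grb10 and Mest at r = 0.68 (permutation adjusted p = 0.00327, rho 0.60, r = 0.52 without 2 hearts), and Cdkn1c and Grb10 at r = 0.57 (permutation adjusted p = 0.0184, rho 0.55, r = 0.51 without 2 hearts). Cdkn1c and Mest gave r = 0.76 within control and 0.75 within diabetes exposed hearts. Ndn ran against 4 genes of the first set, at r = -0.84 with H19 (permutation adjusted p = 0.00063, rho -0.88, r = -0.69 without 2 hearts) and r = -0.61 with Igf2 (permutation adjusted p = 0.00116, rho -0.73, r = -0.55 without 2 hearts), and at r = -0.54 with Igf2r and -0.51 with Peg3. With Plagl1 it was at r = -0.17 (permutation adjusted p = 0.571).

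The first within-group component, which held 27% of the variance, was then also removed. Cdkn1c and Mest were at r = 0.77 and Grb10 and Mest at r = 0.74. Igf2 and H19 went to r = 0.62 and Igf2 and Plagl1 from 0.67 to 0.37. Igf2r had gone with Grb10 of the second set already before this removal (r = 0.53, permutation adjusted p = 0.035, rho 0.47, r = 0.41 without 2 hearts). After the removal Igf2r and Grb10 were at r = 0.78. Igf2r and Mest went from r = 0.14 to 0.71, and Igf2r and Cdkn1c from 0.34 to 0.61. Ndn was at r = -0.66 with H19, -0.18 with Igf2, -0.15 with Igf2r, 0.09 with Peg3 and 0.53 with Plagl1. H19 and Plagl1, at r = 0.49 before, were at r = -0.02. The pair of H19 probe sets was itself at r = 0.26 after this removal, so these H19 values hold for 10726995 alone. HF diet heart 3, high on 10726995 and low for Ndn, was kept in them. The component held 2.99% of the variance of Cdkn1c, 0.84% of that of Grb10 and 24.4% of that of Mest. After its removal the median absolute r of the 36 pairs was 0.45 against 0.20 over all pairs, and 12 pairs passed an adjusted p of 0.05.

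**Figure D5:**
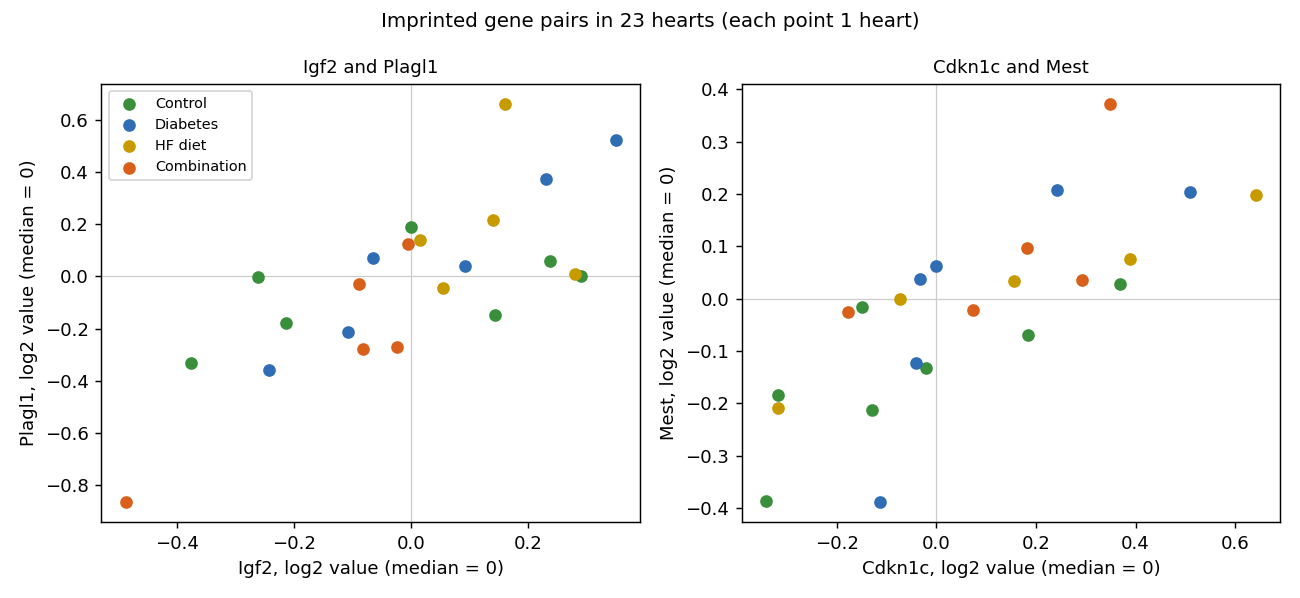
Log2 values of Plagl1 against Igf2 (left) and of Mest against Cdkn1c (right) in 23 hearts, each point 1 heart in the color of its exposure group, with the median of each probe set at 0. Both pairs rise together, with r = 0.67 and r = 0.75 after removal of group means, and combination heart 1 lies at the lower left for Igf2 and Plagl1.

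Outside the members, the single-symbol probe sets most like the called ones were listed by Pearson's r over the 23 hearts, group means included, as a description. For Plagl1 they were Insr (probe set 10756251), the insulin receptor (r = 0.91), Col5a1, a fibrillar collagen chain (r = 0.89), and Pxn, the focal adhesion protein paxillin (r = 0.88). For H19 10726995 they were Dlg1, a scaffold protein of cell junctions (r = 0.95), Ppp1r9b, which encodes spinophilin (r = 0.93), and Sp1, a broadly expressed transcription factor (r = 0.93). All these values share hearts and arrays.

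A list of 61 other imprinted genes had 51 measured, on 52 probe sets. Against HF diet exposed hearts, 2 were called higher and 3 lower in combination exposed hearts, with a median of -0.014 over the list and -0.011 over all probe sets. Meg3, a maternally expressed long non-coding RNA in the mouse, was lower by 0.79 on the log2 scale (log2 difference -0.79, SE 0.26, limma adjusted p = 0.368), from a mean of 0.38 in HF diet exposed to -0.41 in combination exposed hearts. Ppp1r9a, which encodes the actin-binding protein neurabin and neighbours Peg10, was at -0.55 (SE 0.17) and Nnat, neuronatin, at -0.39 (SE 0.14). The homeobox gene Dlx5 was at 0.56 (SE 0.19) and the protease inhibitor gene Tfpi2 at 0.37 (SE 0.17). In the interaction, Meg3 was at -0.97 (SE 0.34), Ppp1r9a at -0.53 (SE 0.22) and Qpct, an enzyme that modifies peptide ends, at 0.37 (SE 0.15).

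Of 28 genes of IGF and insulin signalling, 24 were measured on 27 probe sets. Between combination and HF diet exposed hearts, Stc1 and Stc2, stanniocalcins that inhibit a protease of IGF binding proteins, were called higher (0.72, SE 0.27, and 0.39, SE 0.14), and Insr on probe set 10756229 lower (-0.37, SE 0.17). Insr on that probe set was also the only call of the list in the interaction (-0.47, SE 0.22). Insr on probe set 10756251, the one most like Plagl1, was called in neither contrast. Of 27 cell cycle inhibitors and cyclins, 21 were measured on 22 probe sets. By limma, no gene of that list was called in combination minus HF diet or in the interaction, nor did any gene of the 3 lists pass an adjusted p of 0.05 in any contrast.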

How the data were processed

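Total RNA of 23 whole hearts was hybridised to Affymetrix Rat Gene 1.0 ST arrays. Per the methods, the authors normalized probe intensities and filtered probe sets in GeneSpring GX, and the deposited values are log2 values. Neither the normalization algorithm nor the limits of that filter is stated. In the table each of 29170 probe sets had a median of 0 over the arrays, so it holds differences and no levels, and dim probe sets could not be filtered. Each number of arrays, 5 to 7 a group, limits the precision. The annotation gave 1 symbol to 15310 probe sets, several to 323 and none to 13537.

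Groups came from the labels. One model with a mean per group was fitted to all probe sets in limma 3.58.1 (R 4.3.3), with 6 pairwise contrasts and the interaction (combination minus diabetes minus HF diet plus control). A call needed a fold change beyond 1.25 and unadjusted p under 0.05, the threshold of the methods, and Benjamini-Hochberg adjustment ran over all 29170 probe sets. The methods' t-test was an alternative, beside other scalings, array weights, filters, blocks, covariates and each heart left out. Both covariates from principal components were chosen after seeing the data. Single members were compared by exact permutation of hearts, two-sided. Correlations used deviations from group means and permutation within groups. The scripts were tested on simulated data. By rule, per-heart values were given for members past the threshold in any contrast and for Igf2, H19 and Igf2r, those of Grb10, Mest, Ndn and Peg3 were added after their values were seen, and other lists named at most 5 calls each. The members and lists were chosen with earlier results of these data known. Promoter windows and gene order were those of RefSeq, assembly GRCr8, and motifs were searched on both strands.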

Additional observations from a re-analysis of the deposited data

Results flagged for a closer look

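In 4 of 40 groups of hearts examined (10 probe sets in 4 groups), 1 heart lay farther from its group than Dixon's 95% limit, and chance does this in about 1 of 20 groups. Combination heart 1 was low for Igf2 (-0.487, with the next heart at -0.088) and for Peg3 (-0.674, next -0.215). HF diet heart 3 was high for H19 10726995 (0.781, next 0.104) and low for Ndn (-1.537, next -0.248). The other H19 probe set read -0.04 in HF diet heart 3. Combination heart 1 also had the widest spread of values over all probe sets (array SD 0.39).

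The effect of diabetes differed between the diets at unadjusted p by an interaction term for H19 10726995 (-0.42, SE 0.20) and Plagl1 (-0.59, SE 0.23). By limma neither passed adjustment over all probe sets (adjusted p = 0.672 for both), and 4.34% of all probe sets were called in the interaction.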

How the results depend on the processing

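Of the 63 member differences, the calls that could move were the 2 between combination and HF diet exposed hearts and the 2 in the interaction. Between combination and HF diet, 0 were called by the methods' t-test, with hearts of 1 code stem averaged, and with the all-heart component as a covariate. One call, 1 of the 2, was kept under quantile normalization, with arrays scaled to 1 spread, with array weights (Plagl1 each time), and with the fibroblast mean (H19 10726995). Leaving out 1 heart gave 0 (without combination heart 1) to 3 calls. In the interaction, array weights, the probe sets of wider spread alone and the code stem as a random block gave 1 call (Plagl1), averaged stems, the fibroblast mean and the all-heart component 0, and the within-group component 4, with Igf2 and Igf2r added. That component is built from deviations from group means, so it leaves every difference as it was and lowers only the residual spread, and its calls say nothing of stability. Leaving out 1 heart gave 1 to 5. Plagl1 was also called between combination and diabetes (1 call) with the within-group component, and leaving out 1 heart gave 0 to 1 there and between HF diet and control. The other counts stayed at 0. The cause was not tested. Over all probe sets, the calls between combination and HF diet (1679) ran from 576 without combination heart 1 to 2995, and from 238 with the all-heart component to 2266 with the within-group one. The interaction (1265) ran from 623 to 2600 and from 378 to 2568, combination against control (965) from 348 to 2103 and from 355 to 1285, combination against diabetes (886) from 277 to 2143 and from 191 to 1384, HF diet against control (275) from 152 to 450 and from 76 to 406, diabetes against control (89) from 68 to 140 and from 27 to 303, and diabetes against HF diet (128) from 99 to 351 and from 61 to 226. Of the pairs of genes, 13 (without combination heart 1) to 18 passed.

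The replicate numbers did not pair the hearts. Same-numbered hearts of different groups had a mean correlation of -0.0052 (31 pairs) against 0.0022 for other numbers (166 pairs). With the number as a replicate block, the interaction had 4 calls, with Igf2 (-0.36) and Igf2r (-0.39) added, and Mest between diabetes and HF diet turned to 0.0034. The block changed no other count of member calls.

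Directions turned only in differences that were never called. Array weights gave 0.00021 for Grb10 between combination and diabetes and -0.0097 for Ndn between diabetes and HF diet. Averaged stems gave 0.0057 for Grb10 between combination and diabetes, 0.17 for Cdkn1c between combination and HF diet, 0.093 for Cdkn1c and 0.035 for Mest between diabetes and HF diet, and 0.016 for Cdkn1c in the interaction. Cdkn1c between combination and HF diet was at 0.029 with the stem as a random block and at 0.0090 with the fibroblast mean, which also gave 0.00013 for Igf2r between combination and control. With the all-heart component, combination minus control was 0.042 for Igf2, 0.080 for Igf2r, 0.011 for H19 10726995 and -0.15 for Ndn, combination minus diabetes was -0.013 for Cdkn1c, -0.0049 for Mest and -0.10 for Ndn, combination minus HF diet was -0.050 for Mest and -0.063 for Ndn, diabetes minus HF diet was 0.010 for H19 10726991, and the Ndn interaction was -0.019. Leaving out 1 heart, differences that changed sign ran from -0.12 to 0.057 for Igf2r in combination minus control, from -0.017 to 0.12 and -0.018 to 0.11 for H19 10726991 and H19 10726995 in diabetes minus control, from -0.20 to 0.0069 for Ndn in diabetes minus control and -0.33 to 0.096 in HF diet minus control, from -0.0013 to 0.13 for Cdkn1c and -0.11 to 0.041 for Grb10 in combination minus diabetes, from -0.13 to 0.11 for Cdkn1c in combination minus HF diet, and in diabetes minus HF diet from -0.074 to 0.035 for H19 10726991, -0.18 to 0.056 for Cdkn1c, -0.077 to 0.058 for Mest and -0.18 to 0.24 for Ndn.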
